A study of Mus musculus with 4 samples.

Results

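The transcripts of the mouse mitochondrial genome were taken as all rows of the deposited count table whose chromosome is given as MT. There were 37 such genes of 54532 in all: 13 protein-coding genes, 2 ribosomal RNA genes and 22 transfer RNA genes. They were measured by RNA sequencing in Dll1-mCherry+ cells of primary mouse breast cancers (strain C57BL/6, MMTV-PyMT), grown after PyMT-Dll1+ cells had been injected into the mammary fat pad. MMTV-PyMT is a transgene in which a mammary tumor virus promoter drives the polyoma middle T oncogene, and mCherry reports Dll1, a ligand of Notch receptors. The unirradiated group held 2 libraries of tumors with no radiation, and the irradiated group held 2 libraries of tumors given targeted radiation at day 30. Digested tumors were sorted with antibodies to CD45, CD31 and TER119, markers of blood, endothelial and red cells, and the mCherry+ cells were then collected. Nothing in the labels says that 1 group's libraries are from different animals, so each p-value reflects the spread of these 4 libraries alone, which may be technical. The library names also carry 1 code for both unirradiated libraries and another for both irradiated ones, so whatever these codes stand for and the radiation cannot be told apart.

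Mitochondrial DNA is a small circle that is copied into long RNAs from both strands. In most places the tRNA genes sit between the other genes, and cutting out the tRNAs releases the ribosomal RNAs and the messenger RNAs. The messenger RNAs code for core subunits of the respiratory chain and of ATP synthase, whose remaining subunits are made from nuclear genes and imported. Most of these RNAs receive short poly(A) tails, and pieces of mitochondrial DNA that were inserted into chromosomes long ago can be nearly identical to them.

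The 37 genes followed each other closely. Of the 22 tRNA genes, 59 to 75 bases long, 18 lay within 5 bases of the next gene on both sides. Of all members, 9 are on the minus strand (mt-Nd6 and 8 tRNA genes). The library kit kept no strand, so reads of overlapping genes on opposite strands cannot be told apart. Nor does a read elsewhere show its strand, so counts of any member, mt-Nd6 and mt-Tp included, can hold RNA of the opposite strand. RNA was selected on oligo d(T)25 beads and then primed at random, so a count reflects RNA that was held by the beads as well as RNA that was present. Of the coding genes, 10 end in a complete stop codon and 3 end in a lone T, which the poly(A) tail extends to a stop. The last 30 bases of these 3, and of mt-Co1 and mt-Nd6 for comparison, are shown 5′ to 3′ with the stop codon or its T in capitals. They are taken from GENCODE M21 transcripts (GRCm38).
mt-Co3: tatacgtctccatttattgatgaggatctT
mt-Nd4: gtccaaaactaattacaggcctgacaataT
mt-Cytb: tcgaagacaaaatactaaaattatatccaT
mt-Co1: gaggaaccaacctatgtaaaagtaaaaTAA
mt-Nd6: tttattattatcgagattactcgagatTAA

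Genes also overlapped. The end of mt-Atp8 shares 43 bases with the start of mt-Atp6, and the end of mt-Nd4l shares 7 bases with the start of mt-Nd4. The shared bases are in capitals below, each run holding the start codon of the downstream gene and the stop codon of the upstream one.
mt-Atp8 and mt-Atp6: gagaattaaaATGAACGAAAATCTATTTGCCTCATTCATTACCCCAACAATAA
mt-Nd4l and mt-Nd4: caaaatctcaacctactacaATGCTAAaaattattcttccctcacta

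Mitochondrial genes made up 1.71% and 1.64% of all counts in unirradiated 1 and 2, and 2.43% and 3.72% in irradiated 1 and 2. The groups did not overlap, and irradiated 2 lay far above irradiated 1. The group means were 1.67% ± 0.0467 (SD, n = 2) and 3.07% ± 0.913 (SD, n = 2), a difference of 1.40 percentage points. An exact two-sided permutation test gave p = 0.333, the smallest that 2 against 2 libraries allow. The 95% Wilson intervals were 1.70 to 1.71%, 1.64 to 1.65%, 2.42 to 2.44% and 3.71 to 3.73% in the same order. They cover counting error only, and treat each read as independent. Reads without molecular identifiers are not independent molecules, so the intervals can be too narrow even for that error. The total counts behind them ranged from 16811888 to 20817997. In bulk RNA, more mitochondrial RNA per cell and more cells of a type rich in it cannot be told apart.

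**Figure D1:**
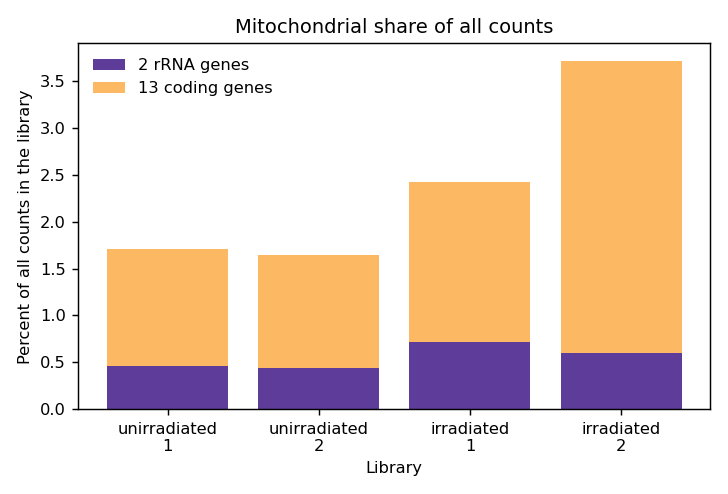
Percent of all counts in each library that fell in the 2 mitochondrial rRNA genes (lower bar part) and the 13 coding genes (upper bar part), with the tRNA genes (at most 0.0765% of mitochondrial counts) left out. The coding part is 1.24%, 1.20%, 1.71% and 3.12% from left to right, while the rRNA part is highest in irradiated 1.

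The 2 rRNA genes and the coding genes did not keep step. Coding genes took 1.24% and 1.20% of all counts without radiation, 1.71% in irradiated 1 and 3.12% in irradiated 2. The rRNA genes took 0.465% and 0.443% in the unirradiated libraries, 0.721% in irradiated 1 and 0.597% in irradiated 2. The ratio of coding to rRNA counts was 2.67 and 2.70 in the unirradiated libraries, 2.36 in irradiated 1 and 5.23 in irradiated 2. This ratio therefore lay below both unirradiated values in irradiated 1 and above them in irradiated 2 (exact two-sided permutation p = 1). As a share of the mitochondrial counts, coding genes held 72.7%, 72.9%, 70.2% and 83.9%.

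Among the 37 members, 16 passed the filter on low counts and were tested: all 13 coding genes, both rRNA genes and mt-Tp. All 16 were higher in each irradiated library than in either unirradiated one, as were 20.3% of the 15993 genes tested. No member passed edgeR's quasi-likelihood test after Benjamini-Hochberg adjustment over all genes, where 0% of genes passed in either direction. The members' adjusted p-values ran from 0.489 to 0.718, and 0.489 was also the smallest of any gene. At an unadjusted p under 0.05, 13 of the 16 were higher, against 6.82% of all genes. DESeq2 called 12 of the 16 higher after adjustment, against 2.73% of all genes, and left out mt-Atp8, mt-Nd3, mt-Nd4l and mt-Tp; limma-voom called 0. With no filter on low counts edgeR called 10 of 31 members tested higher, against 4.86% of 27538 genes called higher and 0.381% lower.

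The calls changed with the irradiated library in the fit. edgeR put the biological coefficient of variation over all genes at 5.93% for the unirradiated pair and 39.4% for the irradiated pair. With irradiated 1 left out, edgeR called all 16 of these members higher (15.9% of all genes were called higher and 7.95% lower), and with irradiated 2 left out it called 13 (11.9% higher and 13.9% lower over all genes). The 3 not called in the latter fit were mt-Atp8, mt-Nd3 and mt-Nd4l. With either unirradiated library left out, 0 were called. In the former fits the lone irradiated library is assumed to vary like the unirradiated pair. The log2 fold changes of the 13 coding genes ran from 0.74 to 1.38 with a median of 1.08, and the median of all genes was 0.0040. Their median log2 difference from the unirradiated mean was 0.50 in irradiated 1 (range 0.35 to 0.70) and 1.49 in irradiated 2 (range 1.03 to 1.84).

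**Figure D2:**
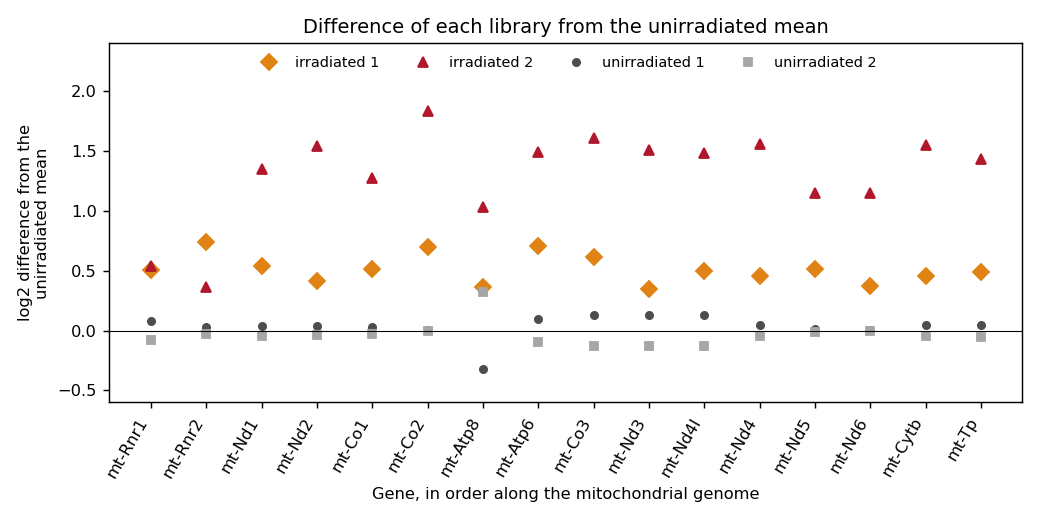
Log2 difference of each library from the mean of the unirradiated libraries (y axis) for the 16 tested mitochondrial genes in genome order (x axis), 1 point per library. Irradiated 2 lies between 1.03 and 1.84 for the coding genes and at 0.54 and 0.36 for mt-Rnr1 and mt-Rnr2, and irradiated 1 lies between 0.35 and 0.74 throughout.

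Complex I, the NADH dehydrogenase at the entry of the respiratory chain, has 7 mitochondrial subunits. The level of mt-Nd1 (positions 2751 to 3707 of the mitochondrial chromosome in GRCm38, as are all positions of members here) was 1634 and 1543 CPM (counts scaled to a common library size, with TMM factors) unirradiated and 2315 and 4041 CPM irradiated. Of mt-Nd4 (positions 10167 to 11544), a subunit of the proton-pumping membrane arm, the levels were 805 and 756 CPM unirradiated and 1067 and 2300 CPM irradiated. In both genes the groups did not overlap (20.3% of all genes tested likewise lay above), and irradiated 2 was by far the highest library. Their log2 fold changes were 1.00 (SE 0.30, edgeR's quasi-likelihood test, adjusted p = 0.492) and 1.11 (SE 0.38, adjusted p = 0.503). The neighbouring membrane subunits mt-Nd2 and mt-Nd5 had fold changes of 1.08 and 0.87 on the same log2 scale. The only coding gene on the minus strand, mt-Nd6 (positions 13552 to 14070), stood at 157 and 156 CPM unirradiated and at 202 and 348 CPM irradiated. Reads at mt-Nd6 can also come from plus-strand RNA. Its log2 fold change of 0.81 (SE 0.27) was among the lower ones, and its share of the coding counts was 1.26% and 1.31% unirradiated and 1.18% and 1.11% irradiated. The 2 short subunits were rare: mt-Nd3 had 2.74, 2.30, 3.23 and 7.36 CPM and mt-Nd4l 2.89, 2.42, 3.78 and 7.57 CPM in unirradiated 1 and 2 and irradiated 1 and 2. Their unadjusted p-values were 0.083 and 0.058 by edgeR's quasi-likelihood test.

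The single mitochondrial subunit of complex III, cytochrome b, is encoded by mt-Cytb (positions 14145 to 15288). Its level was 2329 and 2190 CPM unirradiated and 3094 and 6609 CPM irradiated. The groups did not overlap, with a log2 fold change of 1.10 (SE 0.39, edgeR's quasi-likelihood test, adjusted p = 0.511). As a share of coding counts mt-Cytb held 18.7%, 18.5% and 18.0% in the other libraries and 21.0% in irradiated 2.

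Complex IV, cytochrome c oxidase, draws its 3 catalytic core subunits from the mitochondrial genome. The first, mt-Co1 (positions 5328 to 6872), was the most counted member in every library, at 5766 and 5552 CPM unirradiated and 8098 and 13704 CPM irradiated. It took 46.4%, 46.8% and 47.2% of the coding counts in unirradiated 1, unirradiated 2 and irradiated 1 and 43.6% in irradiated 2. The second, mt-Co2 (positions 7013 to 7696), had 24.5 and 24.4 CPM unirradiated and 39.8 and 87.5 CPM irradiated. Its log2 fold change of 1.38 (SE 0.38, edgeR's quasi-likelihood test, adjusted p = 0.489) was the largest among the tested members. For mt-Co3 (positions 8607 to 9390) the levels were 25.7, 21.4, 35.9 and 71.8 CPM, a log2 fold change of 1.19 (SE 0.35). In none of the 3 did the groups overlap, and 20.3% of all genes tested likewise lay above in both irradiated libraries.

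ATP synthase takes 2 subunits of its membrane part from the mitochondrial genome. The proton channel subunit mt-Atp6 (positions 7927 to 8607) had 33.2 and 29.1 CPM unirradiated and 50.7 and 87.8 CPM irradiated, a log2 fold change of 1.15 (SE 0.28). Its unadjusted p of 0.0092 was the smallest among the members by edgeR's quasi-likelihood test. The small subunit mt-Atp8 (positions 7766 to 7969) had 1.20 and 1.89 CPM unirradiated and 1.97 and 3.20 CPM irradiated. The groups only just failed to touch, and the fold change of 0.74 (SE 0.48, log2) came with an unadjusted p of 0.181 in the same test.

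The ribosomal RNAs are the RNA parts of the mitochondrial ribosome. The small-subunit RNA mt-Rnr1 (positions 70 to 1024) had 1271 and 1139 CPM unirradiated and 1705 and 1753 CPM irradiated. The large-subunit RNA mt-Rnr2 (positions 1094 to 2675) had 3389 and 3256 CPM unirradiated and 5548 and 4264 CPM irradiated. Irradiated libraries were above unirradiated ones in both, as in 20.3% of all genes tested. In these 2 rRNA genes irradiated 2 was close to or below irradiated 1, unlike in the coding genes. Their log2 fold changes were 0.52 (SE 0.16, edgeR's quasi-likelihood test, adjusted p = 0.492) and 0.56 (SE 0.22, adjusted p = 0.534). Inside these genes the longest runs of A hold 5 and 7 bases, shown in capitals with 20 bases on either side because the beads bind A.
mt-Rnr1: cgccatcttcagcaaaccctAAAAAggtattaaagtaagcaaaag
mt-Rnr2: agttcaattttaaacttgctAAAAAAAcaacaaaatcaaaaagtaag

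Transfer RNAs, which bring amino acids to the ribosome, were nearly absent from the counts. Only mt-Tp (positions 15356 to 15422, minus strand), the tRNA for proline, passed the filter. It is the last gene annotated on the genome and was the only tRNA gene with more than 38 counts summed over the libraries.
mt-Tp: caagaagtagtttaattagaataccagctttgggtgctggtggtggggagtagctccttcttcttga
It had 213 and 162 counts unirradiated and 277 and 504 counts irradiated, which was 84.2%, 82.2%, 79.6% and 93.7% of all tRNA counts. At 10.2, 9.55, 13.97 and 26.9 CPM its groups did not overlap, with a log2 fold change of 1.04 (SE 0.35) near the coding median. The other 21 tRNA genes had 40, 35, 71 and 34 counts together, and 6 of them had 0 in all libraries. A count of 0 allows up to 3 counts, or 0.144 to 0.177 CPM depending on the library. No order among these 21 could be read at this depth.

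Levels per length, in CPM per kilobase of gene, split the coding genes. In the unirradiated libraries mt-Co1 was highest at 3663 ± 98.1 (SD, n = 2), followed by mt-Cytb at 1975 ± 85.7 and mt-Nd1 at 1660 ± 67.3. After them came mt-Nd2 at 802 ± 31.6, mt-Nd4 at 566 ± 25.3, mt-Nd5 at 433 ± 5.3 and mt-Nd6 at 301 ± 1.9. Each of these neighbours differed by more than their SDs, and the order of the 7 was the same in each of the 4 libraries. Far below stood mt-Atp6 at 45.8 ± 4.2, mt-Co2 at 35.7 ± 0.19 and mt-Co3 at 30.0 ± 3.9, then mt-Nd4l at 8.9 ± 1.1, mt-Atp8 at 7.6 ± 2.4 and mt-Nd3 at 7.2 ± 0.90. Among the last 3, mt-Atp8 did not differ from mt-Nd4l or mt-Nd3 beyond its own SD. On few counts, mt-Nd4l lay above mt-Nd3 in each of the 4 libraries. The lowest of the 7 high genes exceeded the highest of the 6 low ones 6.21-fold, 7.01-fold, 5.24-fold and 5.19-fold in unirradiated 1 and 2 and irradiated 1 and 2. The low genes are not together by complex: they hold 2 subunits each of complex I, complex IV and ATP synthase. They follow each other on the genome, with tRNA genes between them, in 1 run from mt-Co2 to mt-Nd4l.

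**Figure D3:**
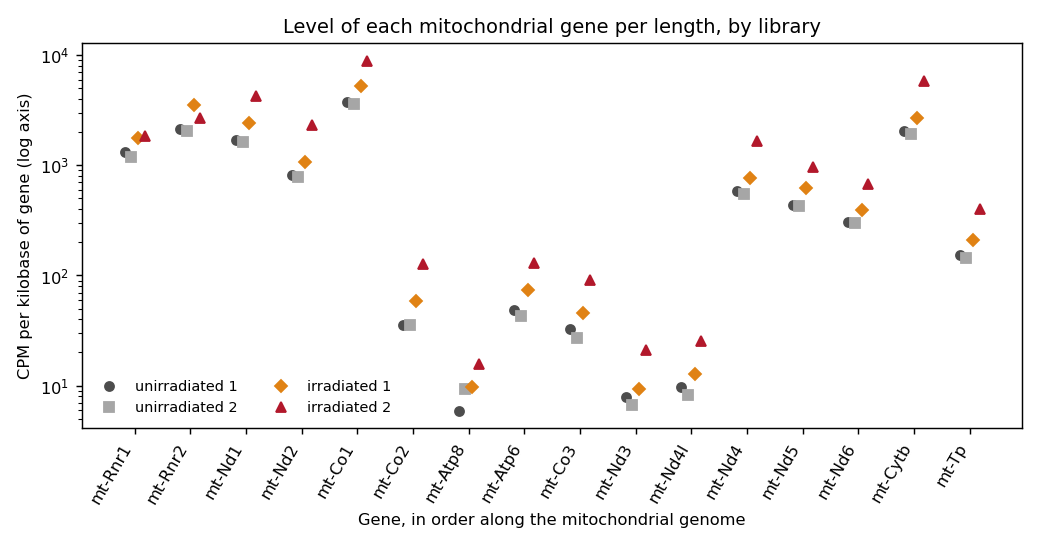
Level of each tested mitochondrial gene in CPM per kilobase (log axis) in genome order, 1 point per library. The 6 genes from mt-Co2 to mt-Nd4l lie between 5.90 and 129 CPM per kilobase, and the other 7 coding genes between 300.1 and 8870.

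Genes of that run have near-identical annotated copies on chromosome 1. The annotation lists 7 pseudogenes side by side on its minus strand, at chr1:24611535-24616197 (GRCm38), a stretch of 4663 bases. The genes they copy lie in the same order over 4662 bases of the mitochondrial genome, from position 6381 to 11042. Both lengths take the copy of mt-Co1 at its full annotated length. Of the 6 gaps between neighbouring copies, 5 have the same size as on the mitochondrial genome. The exception is the gap between the copies of mt-Nd3 and mt-Nd4l, at 74 bases against 73. Copies of mt-Co2, mt-Atp6, mt-Co3, mt-Nd3 and mt-Nd4l hold all but the last 1 to 3 bases of the gene. Those of mt-Co1 and mt-Nd4 hold 31.8% and 63.6% of it. For mt-Atp8 no separate copy is annotated. Its last 43 bases, shared with mt-Atp6, lie in the copy of mt-Atp6. The rest of mt-Atp8 lies in the gap of 233 bases between the copied parts of mt-Co2 and mt-Atp6, which has the same size on chromosome 1. The sequences of that gap and of the others between the copies were not read here.

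Copies of mt-Co2, mt-Atp6, mt-Co3, mt-Nd4l and mt-Nd4 had 0 differences from the mitochondrial gene over their aligned length. The copy of mt-Nd3 had 1, T3C, and the copy of mt-Co1 had 6, T1056A, C1057T, A1059G, A1060G, C1062A and A1066T. Positions are counted from 1 at the first base of the mitochondrial gene, whose base comes first. The 6 differences of the mt-Co1 copy lie near its start and rest on an alignment over its full 492 bases. A local match of the same pair held only 483 bases, at 99.8% identity. Whether the first bases of this copy come from mt-Co1 was not tested. Stretches of 60 bases from 3 of the genes and their copies are shown because reads from them can be told apart only at the capitals, which mark the differing bases. For mt-Nd3 and mt-Co2 they begin at the gene's start, and for mt-Co1 at the first base of its copy, position 1054. No base differs between mt-Co2 and its copy Gm28661.
mt-Co1: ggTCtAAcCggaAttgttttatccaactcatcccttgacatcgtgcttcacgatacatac
Gm29216: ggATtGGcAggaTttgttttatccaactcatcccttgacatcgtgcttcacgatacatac
mt-Nd3: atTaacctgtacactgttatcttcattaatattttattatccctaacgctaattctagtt
Gm28438: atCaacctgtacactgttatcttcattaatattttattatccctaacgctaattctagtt
mt-Co2: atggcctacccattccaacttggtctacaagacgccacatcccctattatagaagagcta
Gm28661: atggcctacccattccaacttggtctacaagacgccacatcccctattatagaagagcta

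Of all windows of 75 bases in mt-Co2, 99.5% occur without a mismatch in an annotated nuclear transcript. The share was 99.5% in mt-Atp6, 99.9% in mt-Co3, 97.8% in mt-Nd3, 98.7% in mt-Nd4l, 61.5% in mt-Nd4 and 39.8% in mt-Co1. It was 5.71% in mt-Nd2, 1.66% in mt-Nd5 and 0 in mt-Nd1, mt-Nd6, mt-Cytb, mt-Atp8, mt-Rnr1 and mt-Rnr2. Thus 5 of the 6 low genes, and none of the 7 high ones, were copied nearly in full on chromosome 1. A less similar copy of the whole of mt-Co1, Gm13340 on chromosome 2 (97.6% identity), had 506, 408, 713 and 1252 counts. Gm13341, also on chromosome 2, matched mt-Co2 over 684 bases (95.9% identity) and had 386, 257, 369 and 860 counts. Only transcripts were searched, so these shares are lower bounds. A read that lies wholly in such a window matches at least 2 places. The way the authors' counting treated such reads is not given in the sources used here. The counts of mt-Co2, mt-Atp6, mt-Co3, mt-Nd3 and mt-Nd4l, and of their copies, are therefore uncertain, and the part of the copies in the low levels was not tested. Per kilobase outside the part copied on chromosome 1, mt-Co1 stood at 5476, 5273, 7690 and 13014 CPM and mt-Nd4 at 1604, 1506, 2126 and 4581 CPM. This assumes that every count came from there, and for mt-Co1 that part is also matched by Gm13340.

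The nuclear copies were counted at levels like those of the genes they copy in full, and they too were higher in the irradiated libraries. Gm10925, the copy of mt-Atp6, had 812 and 651 counts unirradiated and 1124 and 2082 irradiated, beside 690, 494, 1005 and 1647 for mt-Atp6. Gm28661 had 548, 433, 875 and 1658 counts beside 510, 413, 789 and 1642 for mt-Co2. Gm28437 had 558, 402, 881 and 1555 counts beside 534, 363, 712 and 1347 for mt-Co3. In all of these the order of the libraries by CPM placed irradiated 2 first and irradiated 1 second, for copy and gene alike. Over the 5 genes copied in full, the ratio of copy to mitochondrial counts ran from 0.533 to 2.04, and over mt-Co1 and mt-Nd4 from 0.0030 to 0.0135. All 7 copies were tested and lay above in both irradiated libraries (20.3% of all genes), with log2 fold changes of 0.86 to 1.38 and adjusted p-values of 0.489 to 0.577 by edgeR's quasi-likelihood test. Their summed level was 128 and 122 CPM unirradiated and 197 and 373 CPM irradiated. In all, 11 nuclear genes, these 7 included, matched a member at 95% identity or more over at least 200 bases. Together they had 172 and 161 CPM unirradiated and 252 and 487 CPM irradiated.

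**Figure D4:**
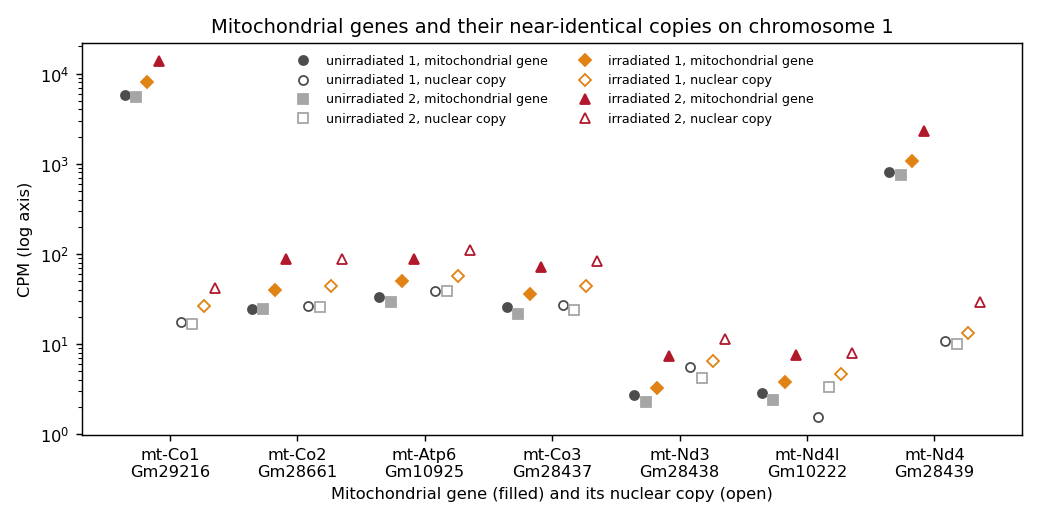
CPM (log axis) of 7 mitochondrial genes (filled points) and of their copies on chromosome 1 (open points), 1 point per library. For the 5 genes in the middle, copied in full, filled and open points lie at like heights with ratios of 0.533 to 2.04, while for mt-Co1 and mt-Nd4, copied in part, the copies lie far below.

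The nuclear genes that run mitochondrial gene expression were set beside the members. Of 54 such genes, all tested, 0 were called higher and 0 lower by edgeR's quasi-likelihood test (2 had an unadjusted p under 0.05), 7 lay above and 17 below in both irradiated libraries. Over all genes tested, 6.82% were higher and 2.44% lower at an unadjusted p under 0.05 in that test. Of all genes, 20.3% lay above and 20% below, and the median log2 fold change of the 54 was -0.08. The mitochondrial RNA polymerase Polrmt had 41.6 and 42.1 CPM unirradiated and 53.7 and 38.3 CPM irradiated, so its irradiated libraries lay on either side. Tfam, which packages and activates mitochondrial DNA, had 28.4, 27.0, 24.0 and 26.7 CPM. Levels of Lrpprc, which stabilises the messenger RNAs, were 37.9, 40.8, 37.2 and 41.8 CPM, and those of Ppargc1a, a coactivator of mitochondrial biogenesis, 2.31, 2.06, 2.07 and 1.97 CPM. None of these 4 shared the pattern of the coding genes, in which irradiated 2 stood highest and irradiated 1 next.

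By group of the list, the genes with the smallest p were as follows. Mterf4, of the transcription group and needed for the mitochondrial ribosome, had 16.8 and 16.1 CPM unirradiated and 11.2 and 12.6 CPM irradiated (log2 fold change -0.47, SE 0.18, edgeR's quasi-likelihood test, adjusted p = 0.535). Trmt10c, a subunit of the enzyme that cuts tRNAs free at their 5′ ends, had 25.3, 24.5, 18.5 and 20.04 CPM (log2 fold change -0.37, adjusted p = 0.537 by the same edgeR test). Both lay below in both irradiated libraries. So did the DNA ligase Lig3, at 141.6, 154.8, 129.7 and 108.2 CPM, and Pnpt1, a subunit of the RNA-degrading complex, at 51.6, 51.7, 46.0 and 44.4 CPM. Nrf1, a transcription factor for nuclear mitochondrial genes, lay above in both, at 24.8, 24.8, 28.9 and 27.9 CPM.

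Nuclear subunits of the same complexes were then set beside the mitochondrial ones. Of 81 nuclear subunit genes, 77 were tested, and 0 passed edgeR's quasi-likelihood test in either direction (0 at an unadjusted p under 0.05). At an unadjusted p under 0.05 in that test, 6.82% of all genes were higher and 2.44% lower. Both irradiated libraries lay above for 2 and below for 4, against 20.3% above and 20% below over all genes, and the median log2 fold change was -0.09. Relative to the unirradiated mean, 73 of the 77 were below 0 in irradiated 1 and 68 were above 0 in irradiated 2, with medians of -0.29 and 0.12. Each nuclear gene was placed in a complex by its symbol. In each irradiated library only 2 of the 77 reached the lowest mitochondrial subunit of that complex or of any complex. Ndufa4l2 did so in both libraries, Cox6b2 in irradiated 1 and Cox4i2 in irradiated 2, all with under 4 CPM. Ndufa4l2, a hypoxia-inducible relative of an NDUFA4 subunit, had 1.30, 0.826, 1.67 and 3.95 CPM (log2 fold change 1.39, adjusted p = 0.564 by edgeR's quasi-likelihood test). Its place in complex I here rests on the symbol alone, which does not settle the complex it belongs to.

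With this placement by symbol, the genes with the smallest p outside complex I were Uqcrc2, Cox7c and Atp5f1. The complex III core protein Uqcrc2 had 108.7, 108.2, 75.1 and 112.2 CPM. Cox7c, a small subunit of complex IV, had 140.9, 127.8, 111.3 and 125.5 CPM, and Atp5f1, of the stator of ATP synthase, 161.2, 154.0, 100.5 and 153.4 CPM. In each, irradiated 1 was the lowest library. Summed over subunits, mitochondrial coding genes had 1.82 and 1.92 times the CPM of the nuclear subunit genes in the unirradiated libraries, 3.22 times in irradiated 1 and 4.54 times in irradiated 2.

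**Figure D5:**
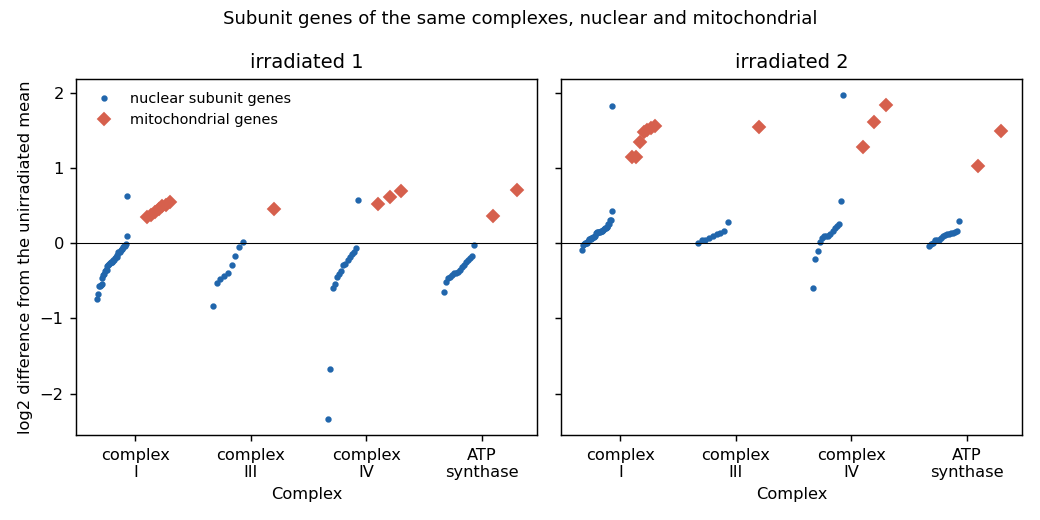
Log2 difference from the unirradiated mean (y axis) of each nuclear (dots) and mitochondrial (diamonds) subunit gene, by complex (x axis), in irradiated 1 (left) and irradiated 2 (right). Genes were placed in a complex by symbol, Ndufa4l2 in complex I. Nuclear medians per complex lie between -0.40 and -0.24 on the left and between 0.10 and 0.14 on the right, and the mitochondrial genes between 0.35 and 0.70 and between 1.03 and 1.84.

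Markers of several other cell types were also higher in the irradiated libraries, with the highest summed levels in irradiated 2. Over all genes tested, 20.3% lay above and 20% below, and the counts of markers are to be read against these shares. Of 12 macrophage and monocyte markers, 11 lay above in both irradiated libraries, with summed levels of 359 and 325 CPM unirradiated and 370 and 1098 CPM irradiated. Such sums follow the most counted markers. The median log2 difference of these 12 from the unirradiated mean was 2.45 in irradiated 1 and 5.69 in irradiated 2. Of 12 lymphocyte markers 9 were tested, and all 9 lay above (8.61 and 7.25 CPM unirradiated, 29.9 and 169 CPM irradiated). So did 8 of 10 endothelial markers (33.7 and 30.0 against 54.3 and 894 CPM) and 7 of 10 fibroblast and pericyte markers (612 and 628 against 808 and 5913 CPM). Among types rich in mitochondria, summed levels were 2.89, 2.71, 3.99 and 12.4 CPM for muscle (1 of 3 tested markers above, 0 below) and 6.02, 7.55, 6.71 and 89.98 CPM for adipocytes (1 of 4 above, 1 below). For salivary-type secretory cells they were 755, 723, 622 and 1127 CPM (6 of 10 above, 3 below). The median log2 difference of these 10 was 2.23 in irradiated 1 and 4.04 in irradiated 2. Red cell markers summed to 2.02 and 4.66 CPM unirradiated and 6.00 and 36.0 CPM irradiated (2 of 3 tested above). Mammary epithelial markers, which check the labelled tissue, summed to 11598, 11176, 12005 and 9792 CPM, with 2 of 10 above and 4 below. No marker in these lists was at 0 in all libraries. The part of these cells in the higher mitochondrial counts was not tested.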

How the data were processed

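RNA of sorted Dll1-mCherry+ mouse mammary tumor cells was sequenced in 2 unirradiated and 2 irradiated libraries after poly(A) selection with a non-directional kit, per the labels' protocols. The authors deposited raw counts per gene. STAR 2.5, HTSeq 0.6.1, DESeq2 and the mm10 build are named per the submitters' processing notes, while for the annotation release, read length and counting options nothing was given in the sources used here. The tables of 3 single libraries were identical to the 4-library table at all 54532 genes.

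The count model was fitted in edgeR 4.0.16 (R 4.3.3): filterByExpr (minimum count 10, minimum total 15) left 15993 genes, libraries were scaled by TMM, and groups were compared with the two-sided quasi-likelihood test, p-values adjusted by Benjamini-Hochberg over those genes (threshold 0.05). Log2 CPM used a prior count of 2. SEs are the log2 fold change divided by the root of F. "Above" and "below" are said of a gene whose groups do not overlap. The fit was tested on simulated data with known fold changes and the same spread in both groups. That test therefore does not bear on the unequal spread of these groups. Alternatives were DESeq2 1.42.0, limma-voom (limma 3.58.1), other scalings and filters, an adjusted p threshold of 0.1, a replicate block, each library left out, and other denominators.

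Gene sequences, lengths and positions come from GENCODE M21 (GRCm38). A search of the nuclear genome had been planned; no genome was used here, so the 7 copies on chromosome 1 come from a list of names, and windows and copies were matched to annotated transcripts (BLAST 2.17.0, Biopython 1.88). All coding and rRNA genes and the tRNA genes that passed the filter are named, with Polrmt, Tfam, Lrpprc and Ppargc1a, the gene with the smallest p in each group of regulators and each complex, and the 3 copies with the highest mean count. The names Cox6b2, Cox4i2, Gm13340, Gm13341, Gm28438 and Gm29216 were chosen with their values in view. All members and lists were chosen with earlier results of these data known.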

Additional observations from a re-analysis of the deposited data

How the results depend on the processing

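The mitochondrial members called higher numbered 0 in the edgeR fit, 12 by DESeq2, 10 with no filter on low counts (of 31 tested, with 4.86% of all genes called higher), and 0 to 16 when 1 library was left out (16 without irradiated 1, 13 without irradiated 2, 0 without either unirradiated library). None was called lower in any of these fits. By DESeq2, 2.73% of all genes were called higher and 0.35% lower. Without irradiated 1, where 15.9% of all genes were called higher and 7.95% lower, regulators numbered 1 higher and 3 lower and nuclear subunits 4 higher and 0 lower. Without irradiated 2, where 11.9% of all genes were called higher and 13.9% lower, they numbered 3 and 9, and 0 and 37. With either unirradiated library left out, or with none left out, they numbered 0. Fewer libraries and another estimate of spread enter those fits, and the cause of the changes was not tested. The coding median log2 fold change was 0.98 to 1.09 over the other settings and 0.49 to 1.49 with 1 library left out. The difference in the mitochondrial share of all counts was 1.40 percentage points, and 0.754 to 2.05 with 1 library left out. Some small differences changed sign. The coding share of mitochondrial counts differed by 4.24 percentage points (-2.58 to 11.1 with 1 library left out), the rRNA share by -4.25 (-11.1 to 2.58), and the tRNA share by 0.0029, or -0.0011 without the rRNA genes. With 1 library left out, the log2 fold change of Polrmt (0.14) ran from -0.14 to 0.35, of Uqcrc2 (-0.21) from -0.54 to 0.034 and of Lrpprc (0.0064) from -0.092 to 0.075. That of Lrpprc was -0.0071 with library size alone, -0.0056 with no filter and -0.0054 with upper-quartile scaling. Replicate numbers appear in the labels with nothing that says they pair libraries, and same-numbered libraries did not deviate together (r = -0.099 across genes). With the number as a replicate block, 0 members were called in either direction, the coding median was 0.98 and the members' adjusted p-values were 0.331 to 1.00 by edgeR's quasi-likelihood test. Beside the small number of libraries, counting error is large for the tRNA genes other than mt-Tp and for mt-Atp8, mt-Nd3 and mt-Nd4l.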
